A study of Mus musculus with 9 samples.

Results

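Solute carriers are the membrane proteins, named with the symbol Slc and a family number, that move nutrients, ions, vitamins, nucleotides and metals across the plasma membrane and organelle membranes. The count table held 286 genes with such a symbol among 24062 genes, and 136 of them formed the set described here. A gene entered when it had more than 10 CPM (counts per 1000000, the count divided by the library's total count and multiplied by 1000000) in at least 1 of 9 libraries. The well-known activation, glucose, lactate, amino acid, nucleoside and zinc carriers Slc2a1, Slc2a3, Slc16a1, Slc16a3, Slc7a1, Slc7a5, Slc7a11, Slc3a2, Slc1a5, Slc38a2, Slc29a1, Slc30a1, Slc39a10 and Slc39a14 were left out by name. The level alone chose the members, so a gene high in 1 group only could enter through that group. This was so for 13 members, through SPR for Slc25a13, Slc25a26 and Slc6a9, through DP for Slc12a2, Slc22a5 and Slc41a2, and through SPF for Slc14a1, Slc22a2, Slc26a6, Slc36a3os, Slc43a1, Slc46a3 and Slc8b1. The levels of those described below are given without a test of that group. Of the other Slc genes, 140 stayed under the threshold, and 39 of these had no count at all. Slc41a2, a magnesium transporter, was the member just inside the threshold with a highest value of 10.03 CPM, and Slc25a33, a mitochondrial pyrimidine nucleotide carrier, lay just outside with 9.81 CPM.

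The libraries came from naive CD4+ T cells of the spleen of male F1 mice, 6 to 10 weeks of age, from a cross of a transgenic GFP reporter line with the Foxp3-IRES-mRFP knock-in line. All 3 groups therefore carried 1 copy of each reporter, the GFP transgene that marks Th17 differentiation and an RFP expressed with Foxp3, and all cells were activated with beads carrying antibodies to CD3 and CD28 for 3 days. SPR cells (GFP+ only) and DP cells (GFP+ RFP+) were sorted from the Th17 culture, which received 5 ng/ml TGFβ with 20 ng/ml IL6. SPF cells (RFP+ only) came from the Treg culture, which received 10 ng/ml TGFβ with 5 ng/ml IL2. Each group had 3 libraries, labelled as biological replicates 1 to 3. In any comparison with SPF, the reporters used for sorting, the cytokine added beside TGFβ and the dose of TGFβ itself changed at once, and their parts cannot be told apart. A reporter marks the activity of its gene's control region, so the populations are defined by fluorescence and not by the protein itself. The paper checked the reporters separately, with antibody staining of the marked proteins in sorted reporter-positive and reporter-negative cells.

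A T cell that leaves rest grows and divides, and needs amino acids, sugars, nucleotide precursors, vitamins and metal ions from its surroundings. Plasma membrane carriers take these in, carriers of the secretory pathway feed the endoplasmic reticulum and Golgi with nucleotide sugars and zinc, and the Slc25 family exchanges metabolites, phosphate and adenine nucleotides across the inner mitochondrial membrane. Zinc illustrates the division of labour, because the Slc39 family moves zinc into the cytosol and the Slc30 family moves it out, into vesicles, organelles or the outside of the cell.

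Total counts ran from 2323243 to 3759662 in SPR, from 1495152 to 2447057 in DP and from 2149540 to 2204236 in SPF. The mRNA of Foxp3 followed the labels, at a mean of 7.0, 100 and 228 CPM in SPR, DP and SPF. The summed level of 7 T cell markers was 3517 to 4495 CPM in SPR, 3137 to 3916 CPM in DP and 4378 to 5026 CPM in SPF, so all DP libraries lay below all SPF libraries, and of these markers Cd4 and Cd3e were called lower in DP than in SPF (1.85-fold and 1.63-fold, edgeR adjusted p = 0.00781 and 0.0456), while Cd28 was called higher (2.94-fold, edgeR adjusted p = 0.0324). The part of this in the DP results was not tested. The 4 B cell markers summed to at most 7.18 CPM in the SPR and DP libraries and to 14.4 to 27.5 CPM in SPF, the 4 myeloid markers to at most 2.09 and to 4.18 to 11.3 CPM, and the 5 erythroid markers to at most 0.669 and to 0 to 19.98 CPM. Most SPF counts of these sums were of Cd79b (126), Itgam (41) and Hba-a1 (52). Lyz2 and Ms4a1 went the other way, with 11, 3 and 1 counts and with 3, 0 and 0 counts in SPR, DP and SPF. Csf1r and Hba-a2 had no count in any library. These are bulk samples, in which fewer cells of a type and less RNA per cell cannot be told apart.

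The members were grouped by their known substrate. There were 29 carriers of the mitochondrial Slc25 family, 21 for metals, 20 for inorganic ions and phosphate, 14 for amino acids and peptides, 14 for nucleosides and nucleotide sugars, 7 for sugars, 6 for monocarboxylates and organic ions, 5 for lipids, choline and acyl-CoA, 4 for vitamins and cofactors and 11 with no assigned substrate. The other 5 genes bear a carrier's name but encode no carrier, for example Slc9a3r1, a scaffold protein that binds the tails of membrane proteins, and Slc36a3os, a transcript opposite to Slc36a3. In all, 78 of the 136 members exceeded 10 CPM in all 9 libraries, and the 13 named above exceeded it in 1 group only. The median member had a mean of 20.04 CPM over the 9 libraries. The highest mean of each substrate group belonged to Slc25a5 (657 CPM), an ADP/ATP exchanger of the inner mitochondrial membrane, Slc44a2 (274 CPM, a choline transporter-like protein), Slc17a9 (216 CPM, the vesicular nucleotide transporter), Slc50a1 (205 CPM, a sugar transporter), Slc30a9 (140 CPM, a mitochondrial zinc transporter), Slc6a6 (107 CPM, the taurine transporter), Slc12a7 (88.4 CPM, a potassium-chloride cotransporter), Slc16a6 (72.5 CPM), Slc35a4 (51.9 CPM, without an assigned substrate) and Slc19a1 (29.8 CPM). These levels come from 3′ libraries and are not divided by transcript length. The median coefficient of variation between replicates was 17.25% in SPR, 21.48% in DP and 21.8% in SPF for the members, beside 16.67%, 19.88% and 21.18% for all 9310 genes tested.

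A minority of the members differed between the Th17 and Treg cultures, and among those with counts in every group the largest called fold changes were increases in SPR and DP cells. Against SPF, 12 members were called higher in SPR and 10 lower by edgeR's quasi-likelihood test at an adjusted p below 0.05, and 18 were called higher in DP and 4 lower. Of these calls, 4 of the 10 lower in SPR and 1 of the 18 higher in DP were of members that had passed the threshold only through the group where they were higher. Of all genes tested, 16.7% were called between SPR and SPF (9.14% higher and 7.58% lower), and 13.7% between DP and SPF (7.55% higher and 6.18% lower). The share of members called was 16.18% in each of these comparisons, so between SPR and SPF it lay at the background. The median log2 fold change of the members was 0.05 between SPR and SPF and 0.04 between DP and SPF, beside 0.00 and 0.01 for all genes tested. Without any 1 library, 8 of the 22 calls in SPR and 5 of the 22 in DP were kept, namely Slc4a11, Slc16a10, Slc16a6, Slc22a15 and Slc39a8 in both comparisons and Slc19a1, Slc25a45 and Slc41a1 in SPR. The share of calls kept in this way over all genes tested is not given here. With scaling by library totals alone, the DP against SPF calls split into 19 higher and 1 lower. The split over all genes tested in that fit is not given here, so this cannot be read as particular to the members. An unadjusted p under 0.05 was reached by 52 and by 46 members, beside 32.1% and 30.4% of all genes tested. DESeq2 called 17 higher and 10 lower in SPR, beside 10.3% and 9.37% of all genes tested (19.6% in either direction), and 18 higher and 7 lower in DP, beside 9.08% and 8.32% (17.4% in either direction). The CPM of SPR and SPF libraries did not overlap for 36 members higher in SPR and 28 lower, beside 19.9% and 17.1% of all genes tested, and those of DP and SPF for 31 higher and 14 lower, beside 19.2% and 12.3%. Both comparisons share the SPF libraries and are given side by side as separate values. As the plot of fold changes by substrate group shows, calls were spread over most groups, and the lipid, choline and acyl-CoA group had none in any comparison.

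**Figure D1:**
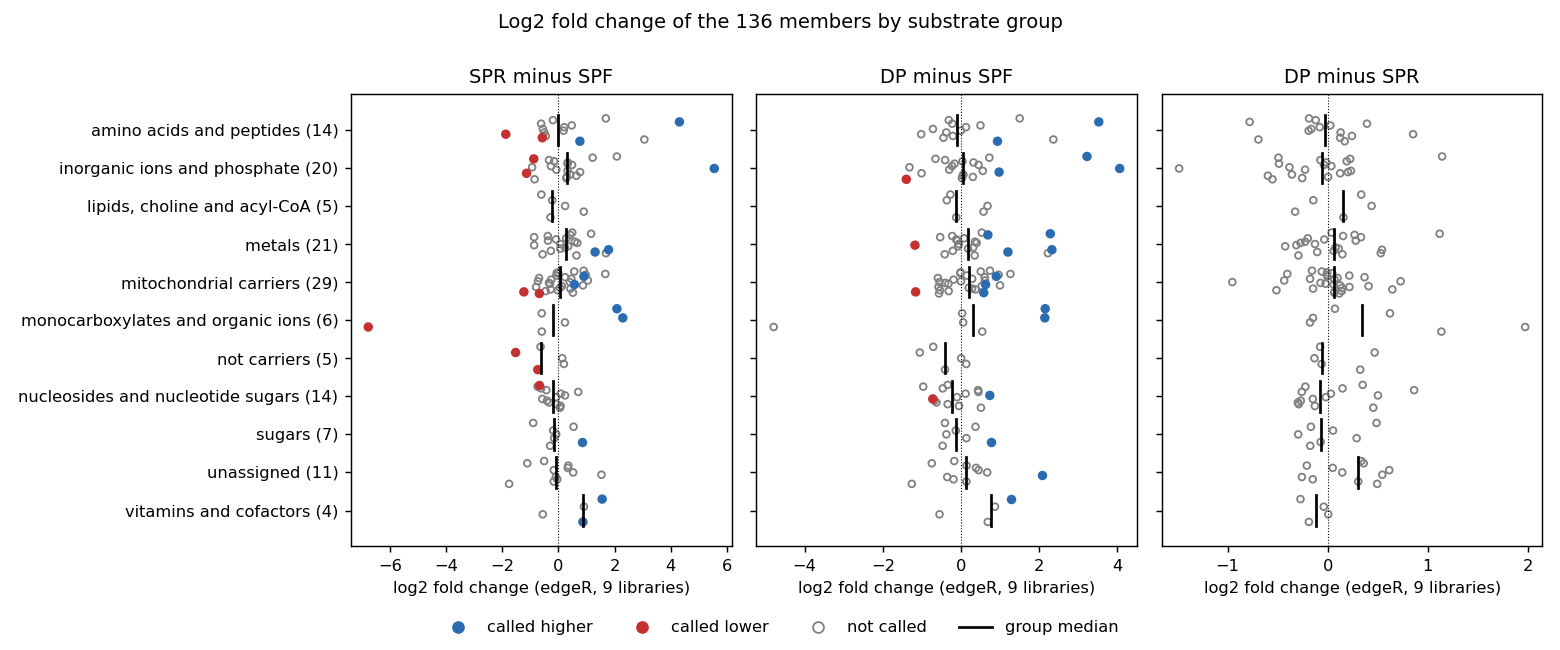
Log2 fold change of each of the 136 members (x axis, edgeR fit of 9 libraries) by substrate group (y axis, number of members in brackets) for SPR minus SPF, DP minus SPF and DP minus SPR. Filled points were called (blue higher, red lower), open points were not, and black bars are group medians. Most points lie near 0, the largest called increases are Slc4a11 and Slc16a10, and no point is filled for DP minus SPR. The point farthest left, Slc22a2, had no count in SPR, so its fitted value is not a measured fold, and it is 1 of the 5 filled points of members that entered only through the group where they were higher.

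Among the carriers of amino acids, monocarboxylates and organic ions, Slc16a10, Slc16a6 and Slc22a15 were much higher in the cells of the Th17 culture. Slc16a10 (chromosome 10, 40033532 to 40142258, minus strand, GRCm38/mm10) encodes a transporter of aromatic amino acids. It measured 12.6, 18.9 and 17.6 CPM in SPR replicates 1 to 3, 12.2, 8.58 and 8.70 CPM in DP and 0.907, 0 and 1.39 CPM in SPF, where it had only 5 counts in all. Every SPR and DP library was above every SPF library, and the log2 fold change was 4.31 ± 0.56 (SE, n = 3 per group, edgeR adjusted p = 0.000703) for SPR and 3.53 ± 0.59 (edgeR adjusted p = 0.00422) for DP. Slc22a15 (chromosome 3, 101855776 to 101924453, minus strand), whose human protein transports zwitterions, was nearly constant within the Th17 culture, at 24.4, 25.8 and 26.1 CPM in SPR and 25.2, 21.7 and 24.8 CPM in DP. In SPF it was at 2.72, 5.12 and 7.44 CPM, and the log2 fold changes were 2.29 ± 0.31 (edgeR adjusted p = 0.000846) and 2.15 ± 0.31 (edgeR adjusted p = 0.00234). Slc16a6, a monocarboxylate transporter family member that exports ketone bodies from the zebrafish liver, lies on chromosome 11 (109450855 to 109473598) and was at 98.4, 102 and 80.3 CPM in SPR, 107, 89.5 and 110 CPM in DP and 41.3, 10.7 and 13.5 CPM in SPF. SPF replicate 1 was the highest of its group, yet it remained below all libraries of the Th17 culture, and the log2 fold changes were 2.08 ± 0.38 (edgeR adjusted p = 0.00465) and 2.15 ± 0.38 (edgeR adjusted p = 0.0059). The annotation has Amz2 and Arsg on the opposite strand of the Slc16a6 locus, and as no source names the strand setting, their reads cannot be told apart. Overlapping annotated genes also lie at Slc39a8 (Gm43428, Gm43429 and 4933401H06Rik), Slc16a10 (Gm25613), Slc25a3 (Gm24119), Slc25a51 (Gm25692), Slc30a4 (4930417H01Rik), Slc35a1 (Gm22849), Slc35a4 (Apbb3), Slc41a2 (Gm47170), Slc37a4 (Mir7085), Slc19a1 (Col18a1), Slc6a6 (Gm45828, Gm44981 and 4930517G19Rik), Slc9a9 (Mir7656, Gm16262 and Gm47168) and Slc35b3 (Gm26514 and 5033403F01Rik), while Slc4a11 and Slc22a15 have none. As a whole, the 6 monocarboxylate and organic ion carriers summed to 133 to 158 CPM in SPR, 146 to 176 CPM in DP and 47.4 to 83.5 CPM in SPF, and Slc16a6 made up most of the sum in SPR and DP.

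The start regions of the strongest of these genes are shown because the genes were higher in SPR and in DP than in SPF, and kept those calls without any 1 library. This was so for Slc4a11, Slc16a10, Slc16a6, Slc22a15 and Slc39a8, of which 3 had an entry among the RefSeq start regions (GRCm38.p6, 250 bases before to 50 after the start, 5′ to 3′ on the gene's strand). The windows are chr10:40142205-40142504 (minus strand) for Slc16a10, chr3:101924404-101924703 (minus strand) for Slc22a15 and, for its 2 listed starts, chr3:135825029-135825328 and chr3:135825407-135825706 (plus strand) for Slc39a8.
Slc16a10: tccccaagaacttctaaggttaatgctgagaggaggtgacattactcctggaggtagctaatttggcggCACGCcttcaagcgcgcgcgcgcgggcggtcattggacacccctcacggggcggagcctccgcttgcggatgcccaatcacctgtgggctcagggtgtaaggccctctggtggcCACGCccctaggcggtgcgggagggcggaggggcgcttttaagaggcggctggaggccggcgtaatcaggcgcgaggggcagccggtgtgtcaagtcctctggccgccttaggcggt
Slc22a15: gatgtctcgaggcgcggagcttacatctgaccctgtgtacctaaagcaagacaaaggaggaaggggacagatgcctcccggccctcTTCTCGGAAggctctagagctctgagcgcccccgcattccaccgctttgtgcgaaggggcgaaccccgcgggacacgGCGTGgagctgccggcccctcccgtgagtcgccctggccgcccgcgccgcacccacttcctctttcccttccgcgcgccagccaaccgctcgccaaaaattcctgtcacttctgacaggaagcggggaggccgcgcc
Slc39a8, start 1: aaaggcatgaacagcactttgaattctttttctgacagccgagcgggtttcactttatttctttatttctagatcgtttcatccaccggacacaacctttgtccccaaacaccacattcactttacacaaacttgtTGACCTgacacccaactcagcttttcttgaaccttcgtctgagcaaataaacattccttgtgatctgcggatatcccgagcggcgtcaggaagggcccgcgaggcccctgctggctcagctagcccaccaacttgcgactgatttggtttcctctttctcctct
Slc39a8, start 2: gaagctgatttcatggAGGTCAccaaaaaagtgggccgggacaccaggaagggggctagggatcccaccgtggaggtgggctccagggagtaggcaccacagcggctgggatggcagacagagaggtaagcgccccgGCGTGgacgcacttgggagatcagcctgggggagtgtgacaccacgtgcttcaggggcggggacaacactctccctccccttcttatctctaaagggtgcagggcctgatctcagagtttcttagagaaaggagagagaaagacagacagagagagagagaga
Capitals mark matches on either strand to TTCNNNGAA, the letters that STAT factors bind, AGGTCA, a half-site of nuclear receptors, and GCGTG, the core that the aryl hydrocarbon receptor binds, and no matches overlapped. Slc16a10 held GCGTG in 2 places, both read on the opposite strand as CACGC, Slc22a15 held TTCNNNGAA and GCGTG 1 time each, and Slc39a8 held AGGTCA 1 time at start 1, read as TGACCT, and AGGTCA and GCGTG 1 time each at start 2. Windows of the same length with a match made up 8.3% for TTCNNNGAA, 16.3% for AGGTCA and 32.4% for GCGTG of the 32851 in the table, and 5.34%, 13.7% and 52.7% of the 131 windows of members, so GCGTG was in most windows of the members. The 32851 windows were not limited to genes over 10 CPM, as the members were, and the difference in shares was not tested. These are matches of letters only, and no binding was measured.

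Among the transporters of metal ions, the zinc and manganese importer Slc39a8 (chromosome 3, 135825279 to 135888572) had the largest called difference. Its level was 37.3, 51.7 and 39.1 CPM in SPR, 62.7, 87.9 and 41.5 CPM in DP and 8.62, 9.77 and 18.1 CPM in SPF. The 6 libraries of the Th17 culture lay above the 3 SPF libraries, with a log2 fold change of 1.78 ± 0.33 (edgeR adjusted p = 0.00482) for SPR and 2.33 ± 0.33 (edgeR adjusted p = 0.00189) for DP. Slc41a1, which carries magnesium (chromosome 1, 131827493 to 131848865), showed 75.4, 73.2 and 63.6 CPM in SPR, 85.8, 55.6 and 62.9 CPM in DP and 40.4, 22.3 and 21.8 CPM in SPF. It rose by 1.30 ± 0.25 in SPR (edgeR adjusted p = 0.00552) and by 1.20 ± 0.25 in DP (edgeR adjusted p = 0.0119), with no overlap of either with SPF, and the DP call was lost without SPF replicate 2 (adjusted p = 0.0568). Slc30a4, which loads zinc into vesicles, stood at 13.3, 4.74 and 7.18 CPM in SPR, 19.8, 23.7 and 13.4 CPM in DP and 2.27, 1.40 and 7.44 CPM in SPF. Its DP libraries were above all SPF libraries (log2 fold change 2.28 ± 0.56, edgeR adjusted p = 0.024), a call lost without DP replicate 1 or 2 or SPF replicate 1 or 2 (adjusted p 0.0598, 0.0924, 0.0667 and 0.0825), whereas its SPR libraries overlapped those of SPF and the SPR difference of 1.16 ± 0.57 was not called (adjusted p = 0.188). Slc30a5, which delivers zinc to the secretory pathway, had a smaller DP difference of 0.69 ± 0.19 (edgeR adjusted p = 0.0397), a call lost in 7 of the 9 fits with 1 library left out (adjusted p 0.0526 to 0.143).

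The zinc importer Slc39a3 went the other way from its paralog Slc39a8. It was at 11.9, 9.47 and 10.6 CPM in SPR, 12.6, 4.90 and 9.36 CPM in DP and 19.5, 20 and 18.1 CPM in SPF, and fell in DP by 1.18 on the log2 scale (SE 0.33, edgeR adjusted p = 0.0394), a call lost in 6 of those 9 fits (adjusted p 0.0564 to 0.112). The difference of -0.87 ± 0.32 in SPR was not called (adjusted p = 0.0855), although the libraries did not overlap. Of the 21 metal transporters, 2 were called higher and none lower between SPR and SPF (9.52%, beside 16.7% of all genes tested), and 4 higher and 1 lower between DP and SPF (23.8%, beside 13.7%). Their summed level was 712 to 739 CPM in SPR, 739 to 761 CPM in DP and 528 to 600 CPM in SPF, so the libraries of either Th17-culture population lay above those of SPF, with TMM scaling as well. Of the mean difference of 161.7 CPM between SPR and SPF, 65.13% came from 3 genes, Slc41a1, Slc48a1 and Slc39a8. Slc48a1 was not called and is named after its values were seen.

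**Figure D2:**
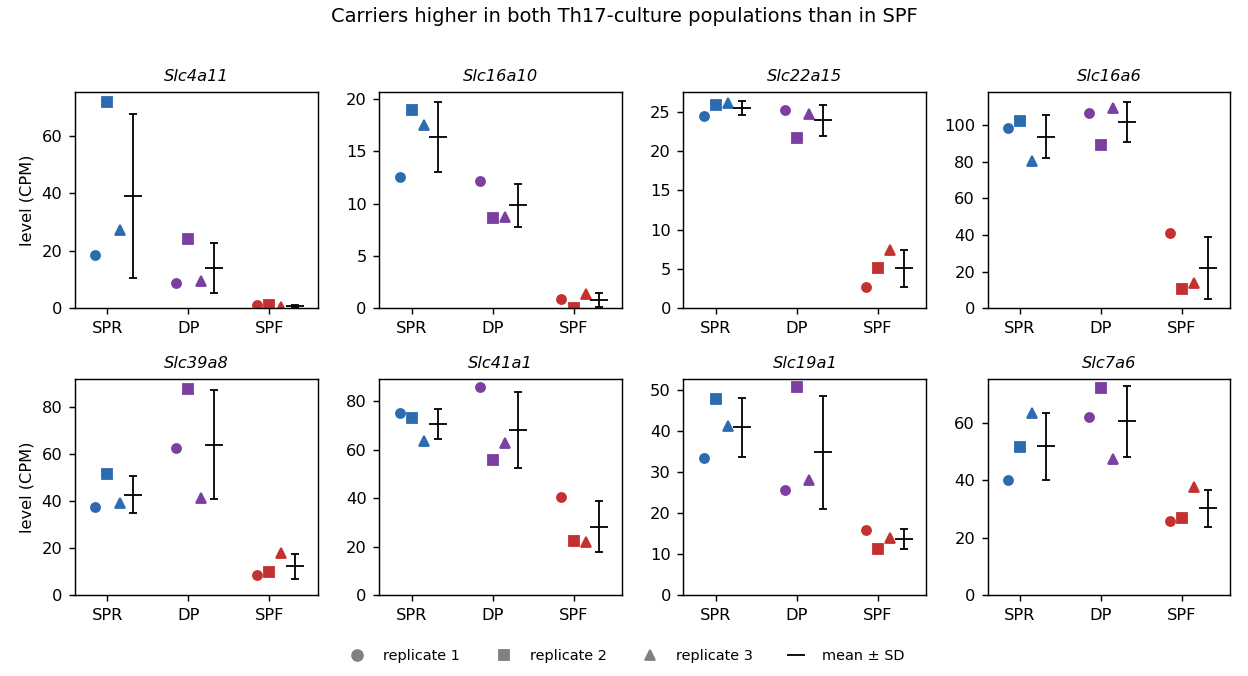
Level (CPM, y axis, each panel with its own scale) of 8 carriers that were called higher in SPR and in DP than in SPF, with 1 point per library, the marker giving the replicate number, and the mean ± SD at the right of each group (n = 3). In all 8 panels each SPF library lies below each SPR and DP library, and Slc4a11 is also lower in DP than in SPR of the same replicate number.

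Slc4a11 had the largest called fold change among members with counts in every group. This gene (chromosome 2, 130684113 to 130697519) encodes a membrane protein of the bicarbonate transporter family, best known from the corneal endothelium. It measured 18.5, 71.9 and 27.4 CPM in SPR, 8.83, 24.1 and 9.36 CPM in DP and 0.907, 0.930 and 0.465 CPM in SPF, where it had 5 counts in all. Replicate 2 was the highest within SPR and within DP, and no group overlapped SPF. The log2 fold change was 5.55 ± 0.76 for SPR (edgeR adjusted p = 0.000883) and 4.06 ± 0.81 for DP (edgeR adjusted p = 0.00958), and both calls were kept under every alternative and without any 1 library.

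The other carriers of inorganic ions moved in both directions. Slc12a2, the sodium-potassium-chloride cotransporter, had low counts, at 4.19, 1.29 and 8.25 CPM in SPR, 6.31, 14.7 and 12.04 CPM in DP and 0.454, 0.465 and 2.32 CPM in SPF. It entered the set only through DP, so this order of levels is a description. Slc4a8, a sodium-driven chloride-bicarbonate exchanger, was called higher in DP, by 0.97 ± 0.29 (edgeR adjusted p = 0.0462), a call lost in 7 of the 9 fits with 1 library left out (adjusted p 0.0581 to 0.115). On the SPF side, Slc8b1, the sodium-calcium exchanger of mitochondria, was at 6.63, 6.46 and 7.18 CPM in SPR, 5.89, 8.58 and 8.70 CPM in DP and 16.3, 15.8 and 12.1 CPM in SPF. All SPF libraries of Slc8b1 were above the others, and SPF was the only group through which it entered the set. The endosomal sodium-proton exchanger Slc9a9 fell in DP by 1.40 (SE 0.41, edgeR adjusted p = 0.0477), a call lost in 6 of the 9 (adjusted p 0.0562 to 0.13). In this group of 20, 1 was called higher and 2 lower between SPR and SPF, and 3 higher and 1 lower between DP and SPF. These shares were 15% and 20%, beside 16.7% and 13.7% of all genes tested. The counts include Slc8b1 and Slc12a2, which passed the threshold only through the group where they were higher. Each of these calls except those of Slc4a11 was lost when 1 or another library was left out.

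The carriers of vitamins and sugars with calls were those of folate, riboflavin and glucose-6-phosphate. Slc19a1, the reduced folate carrier (chromosome 10, 77032241 to 77061002), was at 33.5, 47.8 and 41.2 CPM in SPR, 25.7, 50.7 and 28.1 CPM in DP and 15.9, 11.2 and 13.9 CPM in SPF. The lowest Th17-culture library was above the highest SPF library, and the log2 fold change was 1.55 ± 0.29 for SPR (edgeR adjusted p = 0.00488) and 1.28 ± 0.29 for DP (edgeR adjusted p = 0.0175), the latter lost without DP replicate 2 (adjusted p = 0.064) and without SPF replicate 2 (adjusted p = 0.0725). The riboflavin transporter Slc52a2 was called higher in SPR (0.87 ± 0.26, edgeR adjusted p = 0.0441), a call lost in each of the 9 fits with 1 library left out. Slc37a4, which moves glucose-6-phosphate into the endoplasmic reticulum, averaged 98.4 ± 13.7, 97.2 ± 3.92 and 54.3 ± 12.1 CPM (SD, n = 3) in SPR, DP and SPF, with log2 fold changes of 0.84 ± 0.19 (edgeR adjusted p = 0.0123) and 0.77 ± 0.19 (edgeR adjusted p = 0.0236). The SPR call was lost without SPR replicate 2 or SPF replicate 2 (adjusted p 0.0506 and 0.0576), and the DP call without DP replicate 2 or 3 or SPF replicate 1 or 2 (adjusted p 0.0578, 0.065, 0.0704 and 0.0926). Slc37a4 was the only one of the 7 sugar carriers to be called in either comparison (14.3% in each, beside 16.7% and 13.7% of all genes tested).

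Of the 14 amino acid and peptide carriers, 2 were called higher and 2 lower between SPR and SPF, and 2 higher and none lower between DP and SPF. That is 28.6% and 14.3%, beside 16.7% and 13.7% of all genes tested. The lower calls include Slc43a1, which passed the threshold only through SPF. Apart from Slc16a10, the higher one was Slc7a6, a partner of Slc3a2 in the exchange of cationic for neutral amino acids, at 40.1, 51.7 and 63.3 CPM in SPR, 61.8, 71.9 and 47.5 CPM in DP and 25.9, 27.0 and 37.6 CPM in SPF. Neither SPR nor DP overlapped SPF, with log2 fold changes of 0.76 ± 0.24 (edgeR adjusted p = 0.0492) and 0.93 ± 0.24 (edgeR adjusted p = 0.0274), calls that were lost in 6 of the 9 fits with 1 library left out for SPR (adjusted p 0.0562 to 0.172) and in 4 for DP (adjusted p 0.0647 to 0.107). The taurine transporter Slc6a6 was lower in SPR, at 85.1, 98.1 and 83.8 CPM against 140, 146 and 106 CPM in SPF, with 103, 107 and 91.6 CPM in DP, and fell in SPR by 0.58 (SE 0.17, edgeR adjusted p = 0.04), a call lost in 7 of the 9 (adjusted p 0.0535 to 0.135). Slc43a1, a carrier of branched-chain amino acids, had few counts, with 2.09, 3.01 and 2.66 CPM in SPR, 5.05, 4.90 and 4.68 CPM in DP and 7.26, 15.8 and 5.11 CPM in SPF. It entered the set only through SPF replicate 2, its highest library, and is given as a description.

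The organic cation transporter Slc22a2 was detected almost only in SPF, with 35 counts over the 3 SPF libraries, none in SPR and 1 in DP. Of the SPF libraries, replicate 2 stood at 12.1 CPM and replicates 1 and 3 at 2.27 and 1.86 CPM. Against a floor of 3 counts over the group, it was at least 16.05-fold lower in SPR, and at least 6.16-fold without SPF replicate 2, the library through which alone it entered the set. The SPF to DP ratio was 34 (95% exact counting interval 5.71 to 1381), which covers counting error only and not the spread between libraries. As SPF replicate 2 alone chose this gene, these ratios describe its levels and are not a test. Its paralog Slc22a15 had the opposite order of levels. The summed B cell and myeloid markers were also higher in every SPF library than in any other, mostly through Cd79b and Itgam. Lyz2 and Ms4a1 had fewer counts in SPF than in SPR, and the erythroid sum was 0 in SPF replicate 1. The part of such cells in the members that were higher in SPF was not tested.

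**Figure D3:**
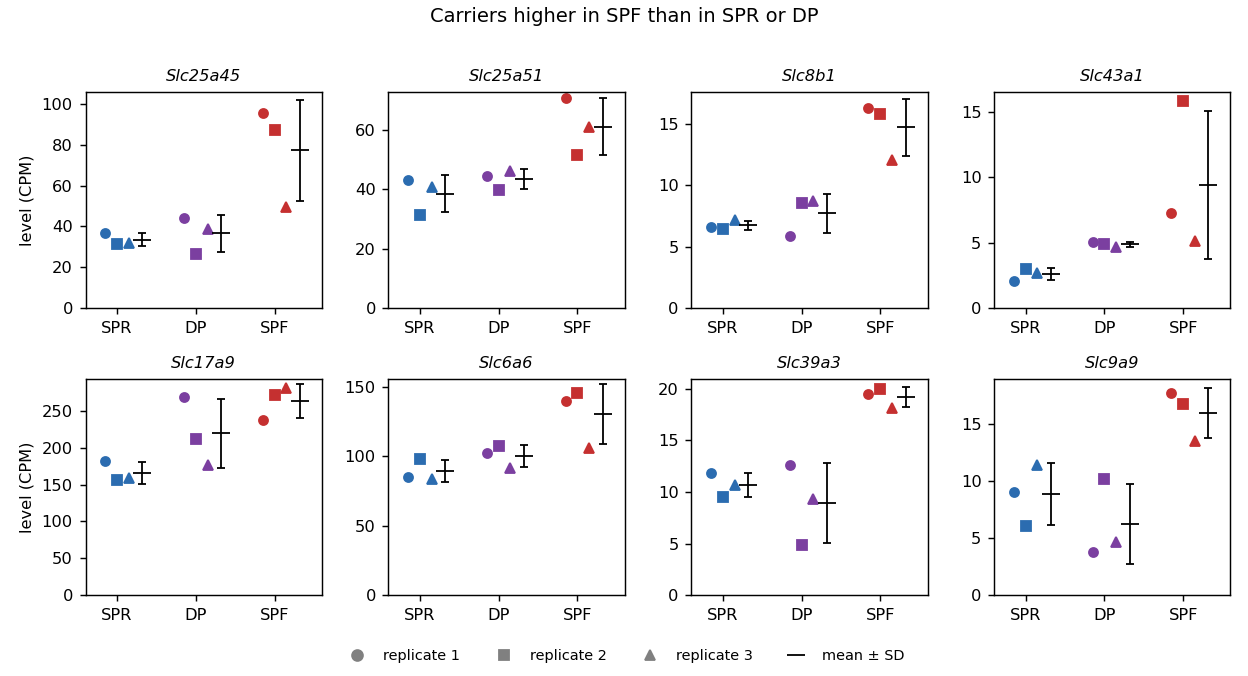
Level (CPM, y axis, each panel with its own scale) of 8 carriers with lower levels in SPR or in DP than in SPF, with 1 point per library, the marker giving the replicate number, and the mean ± SD at the right of each group (n = 3). Slc8b1 and Slc43a1 entered the set only through SPF, and the other 6 were called lower in SPR or in DP. SPF replicate 3 is the lowest SPF library of Slc25a45 at 49.3 CPM.

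The mitochondrial carriers of the Slc25 family held the most abundant members, and the family was divided. The phosphate carrier Slc25a3 (chromosome 10, 91116574 to 91124059) was at 782, 709 and 643 CPM in SPR, 759, 919 and 628 CPM in DP and 489, 465 and 462 CPM in SPF. Its SPF libraries were close together and below all others, and the log2 fold change was 0.57 ± 0.17 in SPR (edgeR adjusted p = 0.0406) and 0.63 ± 0.17 in DP (edgeR adjusted p = 0.0326), calls that were both lost in 7 of the 9 fits with 1 library left out. The ADP/ATP exchanger Slc25a5 (chromosome X, 36795651 to 36798807) stood at 675, 815 and 645 CPM in SPR, 680, 851 and 779 CPM in DP and 462, 471 and 537 CPM in SPF. It was called in DP (0.58 ± 0.17, edgeR adjusted p = 0.0423), a call lost in 6 of the 9 (adjusted p 0.0623 to 0.133), while the SPR difference of 0.52 ± 0.17 was not called (adjusted p = 0.0557), and processed copies of this gene in the genome make its count uncertain. Slc25a17, which sits in the peroxisome membrane and carries coenzyme A, FAD and NAD, averaged 122 ± 28.1, 126 ± 6.81 and 63.6 ± 14.2 CPM (SD, n = 3) in SPR, DP and SPF, with a log2 fold change of 0.91 ± 0.21 (edgeR adjusted p = 0.0158) and 0.90 ± 0.22 (edgeR adjusted p = 0.0212). Leaving out SPR replicate 2 ended the SPR call (adjusted p = 0.0636), and the DP call was lost without DP replicate 2 or 3 or SPF replicate 1 (adjusted p 0.0695, 0.0509 and 0.0602).

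Slc25a45 (chromosome 19, 5877808 to 5885878) was the member of this family that was clearly higher in SPF. It measured 37.0, 31.4 and 31.9 CPM in SPR, 44.2, 26.6 and 38.8 CPM in DP and 95.7, 87.0 and 49.3 CPM in SPF. No library of the Th17 culture reached the SPF libraries, and it fell by 1.23 in SPR (SE 0.26, edgeR adjusted p = 0.0101) and by 1.16 in DP (SE 0.27, edgeR adjusted p = 0.0185). The SPR call was kept without any 1 library, and the DP call was lost without DP replicate 2, SPF replicate 1 or SPF replicate 2 (adjusted p 0.0746, 0.0539 and 0.0723). Slc25a51, the carrier that brings NAD into mitochondria, fell in SPR by 0.68 (SE 0.18, edgeR adjusted p = 0.0282), a call lost without SPR replicate 2 or 3 or SPF replicate 1 (adjusted p 0.108, 0.0567 and 0.0906). Of the 29 members of this family, 2 were called higher and 2 lower between SPR and SPF, and 3 higher and 1 lower between DP and SPF. The share was 13.8% in each comparison, beside 16.7% and 13.7% of all genes tested. The summed level of the family was 2832 to 3212 CPM in SPR, 3035 to 3484 CPM in DP and 2347 to 2437 CPM in SPF. Of the mean difference of 662 CPM between SPR and SPF, 89.85% came from Slc25a3, Slc25a5 and Slc25a4, a further ADP/ATP exchanger that was not called (0.43 ± 0.17 in SPR, edgeR adjusted p = 0.105), so the sum reflects 3 of the 29 genes.

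**Figure D4:**
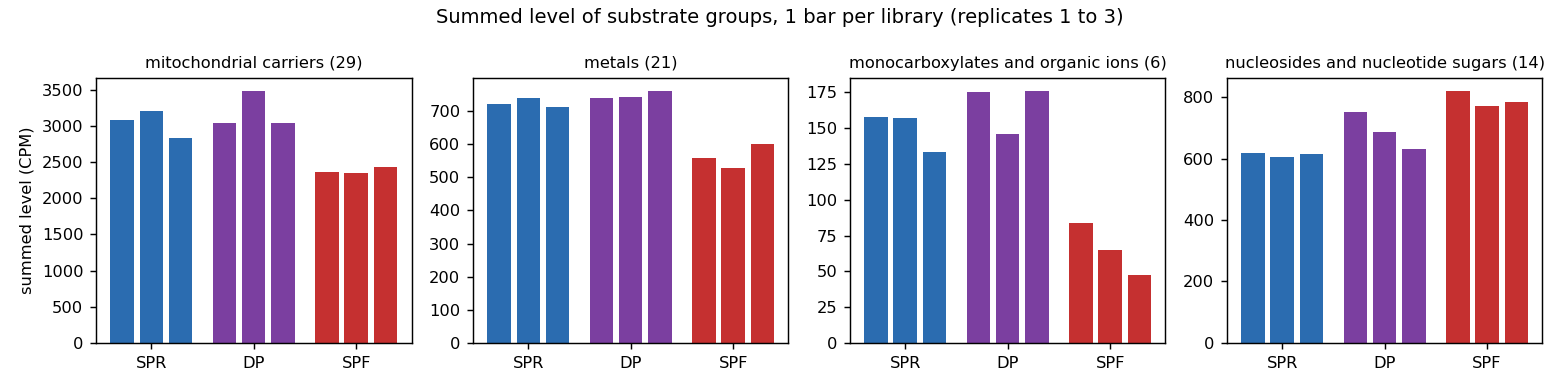
Summed level (CPM, y axis from 0, each panel with its own scale) of 4 substrate groups, with 1 bar per library in the order of replicates 1 to 3 and the number of members in brackets. The mitochondrial, metal and monocarboxylate sums are lowest in the SPF libraries, and the nucleoside and nucleotide sugar sum is highest there, at 770 to 820 CPM. Not all groups separated in this way. The amino acid, inorganic ion and sugar sums, not plotted, overlapped between SPF and each of SPR and DP.

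Nucleoside and nucleotide sugar carriers formed a group whose summed level was highest in SPF. The 14 genes summed to between 604 and 619 CPM in SPR, between 630 and 752 CPM in DP and between 770 and 820 CPM in SPF, with no overlap between any of the groups, also with TMM scaling. Only 1 of the 14 was called between SPR and SPF, lower in SPR, and 1 higher and 1 lower between DP and SPF. These were 7.14% and 14.3% of the group, beside 16.7% and 13.7% of all genes tested. Slc17a9 and the nucleoside transporter Slc28a2, which was not called and is named after its values were seen, made up 82.73% of the mean difference of the sum between SPR and SPF. The largest part was Slc17a9, which loads ATP into vesicles (chromosome 2, 180725263 to 180742280), at 183, 156 and 159 CPM in SPR, 269, 212 and 177 CPM in DP and 238, 272 and 282 CPM in SPF. It fell in SPR by 0.69 (SE 0.18, edgeR adjusted p = 0.0226), a call lost without SPR replicate 2 or 3 or SPF replicate 2 (adjusted p 0.0834, 0.0664 and 0.0717), and its DP libraries overlapped those of SPF (-0.34 ± 0.18, adjusted p = 0.218). Slc35b1, which exchanges ATP and ADP across the endoplasmic reticulum membrane, was called higher in DP than in SPF (0.74 ± 0.20, edgeR adjusted p = 0.0343), at 45.9, 65.8 and 49.5 CPM against 35.8, 29.3 and 27.0 CPM, a call lost in 6 of the 9 fits with 1 library left out (adjusted p 0.0505 to 0.137). Its paralog Slc35b3, which carries the sulfate donor PAPS into the Golgi, was called lower in DP by 0.72 (SE 0.22, edgeR adjusted p = 0.049), but its DP libraries of 42.1, 30.7 and 30.8 CPM overlapped the SPF libraries of 62.6, 41.9 and 58.6 CPM, and the call was lost in 8 of the 9 (adjusted p 0.0518 to 0.165). Slc35f5, without an assigned substrate here, was called higher in DP (2.08 ± 0.52, edgeR adjusted p = 0.0262), at 18.9, 8.58 and 12.04 CPM against 1.36, 2.79 and 4.65 CPM in SPF, a call lost without DP replicate 1 or 3 or SPF replicate 1 or 2 (adjusted p 0.0928, 0.0539, 0.0694 and 0.0825).

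Among the genes that encode no carrier, Slc9a3r1 averaged 311 ± 26.4, 404 ± 67.9 and 509 ± 104 CPM (SD, n = 3) in SPR, DP and SPF and fell in SPR by 0.74 (SE 0.20, edgeR adjusted p = 0.0297), a call lost in 5 of the 9 fits with 1 library left out (adjusted p 0.0535 to 0.104). Slc36a3os, which entered only through SPF, was at 10.9, 11.6 and 9.76 CPM there and at 4.19, 3.01 and 3.99 CPM in SPR. Its reads could not be told apart from those of Slc36a3 on the opposite strand. Without these genes, 12 carriers were called higher and 8 lower in SPR, and the counts in DP did not change.

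DP and SPR cells were sorted from the same culture. In the fit of all 9 libraries no member was called between DP and SPR (6 had an unadjusted p under 0.05 with edgeR and 5 with DESeq2, which also called none), beside 0.0107% of all genes tested, which is 1 gene, and 6.57% with an unadjusted p under 0.05. DESeq2 called 0.473% of all genes tested, and 5.85% had an unadjusted p under 0.05. The SPR and DP libraries of the same replicate number deviated together, so the fit that pairs them by replicate is given too. In this paired fit 1 member was called, beside 3.48% of all genes tested (1.97% higher and 1.51% lower), and 16 members had an unadjusted p under 0.05, beside 15.8%. The called member was Slc4a11, lower in DP than in SPR of the same number in 3 of 3 pairs, by 1.47 on the log2 scale (SE 0.21, edgeR paired fit, adjusted p = 0.00287). With the replicate numbers as a block over all 9 libraries no member was called (Slc4a11 adjusted p = 0.128 with edgeR), and without the pairing its difference was -1.49 ± 0.51 (edgeR adjusted p = 0.613). Replicate 2 held the highest level in both populations.

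**Figure D5:**
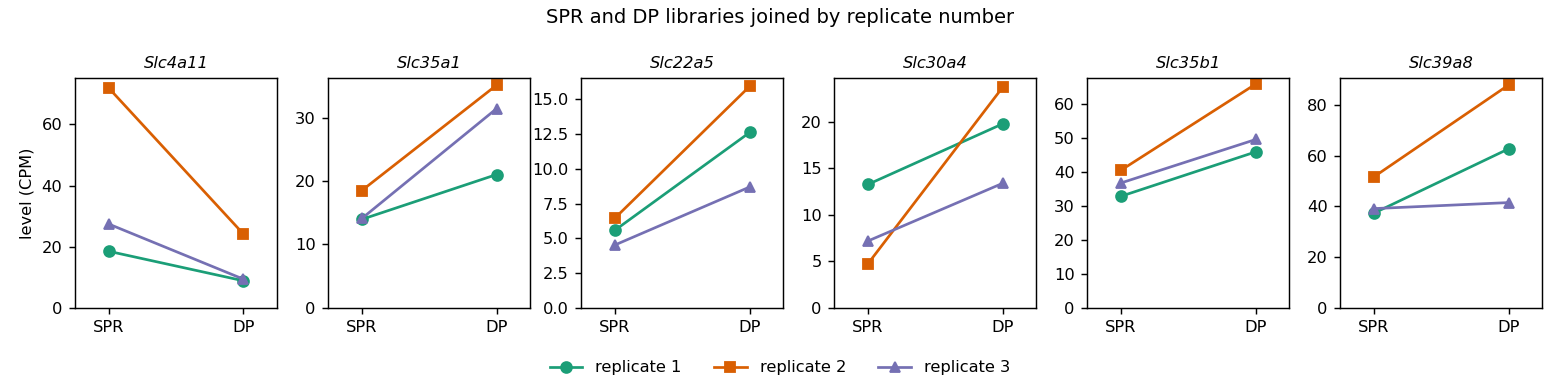
Level (CPM, y axis from 0, each panel with its own scale) of 6 carriers in SPR and DP, with a line joining the libraries of 1 replicate number. Slc4a11, called in the paired fit, falls along all 3 lines, and the other 5, which were not called, are higher in DP along all 3. These 5 were picked for the plot with their values known, and Slc22a5 entered the set only through DP.

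With Slc22a5 left aside, the members with the next lowest paired p-values were higher in DP and were not called. They and Slc22a5 were named after their values were seen. Slc35a1, the Golgi CMP-sialic acid transporter, was at 13.96, 18.5 and 14.1 CPM in SPR and 21.0, 35.1 and 31.4 CPM in DP, with no overlap (0.85 ± 0.21, edgeR paired fit, adjusted p = 0.0522). The carnitine transporter Slc22a5 was at 5.58, 6.46 and 4.52 CPM in SPR and 12.6, 15.9 and 8.70 CPM in DP, the group through which alone it entered the set. For Slc22a5 that choice bears on the order of the groups, so it is a description only. Slc30a4 (1.13 ± 0.33) and Slc35b1 (0.50 ± 0.16) had every DP library above every SPR library, with edgeR paired adjusted p of 0.101 and 0.133. In 38 of the 136 members DP was higher than SPR in 3 of 3 pairs, which is 27.94% beside 21.7% of all genes tested, and in 16 it was lower, 11.76% beside 15.3%. This split depends on the scaling, since it was 30 against 20 members with TMM scaling. The shares of all genes tested are those without TMM scaling, and none is given with it. Groups did not overlap for 15 members higher in DP and 6 lower, beside 9.04% and 5.41% of all genes tested.

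The 3 lists of related genes were read beside the members. Of all genes tested, 16.7% were called between SPR and SPF, 13.7% between DP and SPF and 3.48% in the paired fit. Of the 14 carriers left out by name, 10 were tested, and 4 were called higher and none lower in SPR than in SPF (40%), and 3 higher and none lower in DP (30%). When DP and SPR libraries were paired, 1 of them was called, the glucose transporter Slc2a3 (lower in DP, -0.69, edgeR adjusted p = 0.0376). Slc39a14, a zinc and iron importer, differed by 1.64 (edgeR adjusted p = 0.0136) and 1.34 (edgeR adjusted p = 0.0403), and Slc7a1, a cationic amino acid transporter, by 1.58 (edgeR adjusted p = 0.0112) and 1.41 (edgeR adjusted p = 0.0247), in SPR and in DP. Of 56 transporters without an Slc symbol, 40 were tested, with 6 higher and 4 lower in SPR (25%) and 4 higher and 4 lower in DP (20%). In the paired fit, Abcb9 (-0.98, edgeR adjusted p = 0.00248) and Slco3a1 (-0.82, edgeR adjusted p = 0.0451) were lower in DP than in SPR, both named after their values were seen, as was Slc2a3. Mfsd2a, which carries lysophosphatidylcholine, had the largest called change, 3.81 in SPR (edgeR adjusted p = 0.00198) and 3.71 in DP (edgeR adjusted p = 0.00363). Of 37 genes of amino acid sensing by the growth kinase mTORC1, 32 were tested, with 3 higher and 3 lower in SPR and 2 higher and 4 lower in DP. The share was 18.75% in each, near that of all genes tested between SPR and SPF. In the paired fit 1 of them was called, Gatsl3 (0.62, higher in DP, edgeR adjusted p = 0.0355). Sesn1, a leucine-regulated inhibitor of mTORC1, fell by 1.82 in SPR (edgeR adjusted p = 0.00235) and by 1.39 in DP (edgeR adjusted p = 0.0121), and Rragd, a Rag GTPase, rose by 1.34 (edgeR adjusted p = 0.0327) and by 1.74 (edgeR adjusted p = 0.0138).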

How the data were processed

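MARS-seq 3′ libraries of 9 sorted samples were sequenced on a NextSeq 500 and mapped to mm10. The authors deposited raw counts per gene, and the submitters' processing notes name cutadapt, STAR, SAMtools and HTSeq. No source used here gives the annotation, the strand setting or the use of molecular identifiers. In the table, 1 unnamed column and 1 unnamed line hold totals and were not used. The 9310 genes over 10 CPM in 1 library or more were tested with edgeR 4.0.16 (R 4.3.3, quasi-likelihood test, TMM factors, group only, all 9 libraries), with Benjamini-Hochberg adjustment over all tested genes and calls below 0.05. DESeq2 1.42.0, other scalings, other filters, a replicate block and leaving out each library were alternatives. Replicate numbers come from the labels. Deviations from the group means correlated at 0.222, 0.401 and 0.407 between same-numbered SPR and DP libraries, so these were taken as pairs, which was not so for SPF (SPR -0.12 to 0.0954, DP -0.151 to 0.124). Replicates differed by more than counting noise (chi-square per degree of freedom 7.96 to 18.8). The unpaired edgeR fit was tested on simulated counts for SPR minus SPF, with changes planted in genes with a mean over 20 CPM. The paired fit and DESeq2 were not tested in this way. With 3 against 3 samples an exact permutation test cannot go below 0.1, so none was used. Gene positions are from GENCODE vM21 (GRCm38). RefSeq start regions were found for 103 members. The members and lists were chosen with earlier results of these data known, and 5 genes were set apart as encoding no carrier after the table was read. Named were called members whose groups do not overlap (up to 12 per direction), those called between DP and SPR, the highest member per substrate group, paralogs called in opposite directions and the genes next to the threshold. Some genes within these rules and lists are not reported here.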

Additional observations from a re-analysis of the deposited data

How the results depend on the processing

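Between SPR and SPF, 22 members were called, and 18 to 32 under DESeq2, other scalings, other filters and a fit of the compared groups. The replicate block within the compared groups gave 13 (11 higher, 2 lower), and with it the calls over all 9310 genes tested fell from 1557 to 1022. Leaving out 1 library gave 8 to 31, with 14 without SPR replicate 1, 8 without SPR replicate 2, 11 without SPR replicate 3 and 10 without SPF replicate 2. Between DP and SPF, the 22 calls became 13 in a fit of the compared groups, 6 with the replicate block within them, and 7 to 26 without 1 library, with 14 without SPR replicate 1, 8 without DP replicate 2, 11 without DP replicate 3, 8 without SPF replicate 1 and 7 without SPF replicate 2, while the other settings gave 20 to 26. With that block, the calls between DP and SPF over all genes tested fell from 1278 to 430. SPF shares only numbers with the other groups, so the block adds no known pairing there. The calls over all genes tested without 1 library are not given here, so those losses cannot be read as particular to the members. Between DP and SPR, 0 members were called, 1 without a filter (Slc4a11, adjusted p = 0.00134), 1 with the replicate block within the compared groups and 0 with it over all 9 libraries. Fits added after seeing the data gave 1 to 2 for the paired fit without 1 replicate number (Slc25a25 was added without replicate 2, adjusted p = 0.0281), 2 with library totals (Slc35a1 was added, adjusted p = 0.0378) and 1 with DESeq2. In the fit of 9 libraries, 8 of the 22 SPR calls and 5 of the 22 DP calls against SPF were kept without any 1 library, and 8 and 4 under every alternative. The cause of the lost calls was not tested. Over single genes and counts, 0 values reversed their direction. Counting only members over 20 CPM in 1 library or with a mean over 10 CPM left 16 and 17 calls in SPR and 18 and 19 in DP.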
